A study of Mus musculus with 6 samples.

Results

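The expression of 9 genes was described in O4-purified brain cells of WT and Npc1-/- mice: Rest, its co-repressor scaffolds Rcor1, Rcor2, Rcor3, Sin3a and Sin3b, and the histone enzymes Kdm1a, Ehmt1 and Ehmt2. They were taken by gene symbol from a table of 55492 genes, and all 9 were among the 15245 genes with enough expression to be tested. No member passed the test for a difference between genotypes. The lowest adjusted p was that of Ehmt2, which encodes the H3K9 methyltransferase G9a and whose mean was 41.7 in WT and 50.7 in Npc1-/- cells (TPM divided by a size factor for each library, called scaled TPM from here on). Of 23 neuronal genes known as REST targets that could be tested, 1 passed as higher in Npc1-/- cells, against 0.4% of all genes. This was the JNK scaffold gene Mapk8ip2, whose call was lost without replicate 2 of either genotype. The target list was drawn up with earlier results of these data known.

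REST is a zinc finger repressor that binds a DNA element called RE1 near many neuronal genes and keeps them low outside neurons. One end of the protein recruits SIN3 scaffolds with histone deacetylases. The other recruits the CoREST scaffolds RCOR1, RCOR2 and RCOR3, which carry the H3K4 demethylase LSD1 (encoded by Kdm1a) and histone deacetylases. G9a (Ehmt2) and its partner GLP (Ehmt1) place methyl groups on H3K9 and work with REST at some of its sites. In the oligodendrocyte lineage these co-repressors take part in switching off neuronal and progenitor genes during maturation.

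Whole brains of mice aged P16 were dissociated, and cells with the O4 antigen, a surface lipid of late progenitors and young oligodendrocytes, were pulled out on magnetic microbeads. WT littermates and Npc1-/- mice were compared, with 3 libraries of poly(A) RNA per genotype, each a biological replicate, and no treatment. Whether each library came from 1 mouse is not stated in the sources used here. Npc1-/- mice were homozygous for the null Npc1nih allele, which removes the cholesterol transporter NPC1 from all cells of the body, and both genotypes were F1 hybrids of the BALB/cJ and C57BL6/J strains. The purified fraction is a mixture of cell types, and in such bulk RNA fewer cells of a type and less RNA per cell cannot be told apart.

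The libraries held between 40000000 and 50250000 fragments, as read from the steps between low values. The TPM of Npc1 itself was 45.5 to 53.3 in WT libraries and 3.16 to 4.42 in those of Npc1-/- mice. Oligodendrocyte markers dominated every library, with Mbp alone at 18.8% to 26.1% of all TPM. No marker in the lists for 6 cell types averaged under 0.5 TPM, neuron, astrocyte, microglia and endothelial markers included. The summed scaled TPM of 10 neuron markers was 152.5 to 172 in WT and 193 to 231 in Npc1-/- libraries. Elavl3 and the neurofilament genes Nefl and Nefm made up most of that gap. Of the 10 markers 2 were called, both higher, against 0.4% of all genes called higher. These were Nefl (means 16.3 and 38.7, adjusted p = 0.0185 by limma) and Nefm (6.78 and 15.2, adjusted p = 0.0134). The log2 fold changes of Syt1, Slc17a7, Slc17a6, Gad1 and Gad2 lay between −0.0023 and 0.07, with overlap. The sum of 7 microglia markers was 183 to 286 in WT and 86.4 to 157 in Npc1-/- libraries, and that of 5 endothelial markers was 1082 to 1122 and 478 to 885. Those 3 sums did not overlap between genotypes, and their part in the results for the 9 genes was not tested. Astrocyte sums were 413 to 480 in WT and 286 to 522 in Npc1-/- libraries, but Gfap (means 88.9 and 190) went against the rest of that list. Of its 7 markers 6 had a negative log2 fold change (49% of all genes did) and 5 lay below WT in every Npc1-/- library (14.2% did). The median log2 fold change was −0.73, with none called. The oligodendrocyte sums were 174878 to 246317 and 220883 to 434691, mostly Mbp (means 182403 and 277392). Sox10 (174 and 178), Olig2 (145 and 151) and Olig1 (533 and 545) differed little. Of the 10 oligodendrocyte markers 8 had positive and 2 negative log2 fold changes, and none was called (0.813% of all genes were). Xist, which is transcribed from the inactive X, reached a TPM of 15.6 in Npc1-/- replicate 3 and at most 0.01 in the other libraries, so the libraries were not all of the same sex. No member is X-linked.

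The binding element of REST is shown first, because it carries the link from the repressor to its targets. RE1 is built of a left part, searched here as TTCAGCACC, and a right part, searched as GGACAGCGC, on both strands of promoter windows reaching from 250 bases before to 50 after each start (RefSeq, GRCm38.p6). The left part stood in 122 of 32851 windows of all genes (0.371%) and the right part in 133 (0.405%). Windows were at hand for 18 of the 26 target genes, and of their 26 windows 4 held the left part (15.4%) and 2 the right part (7.69%). A textbook RE1 was one ground for putting a gene on the target list, so these shares are not independent of that choice. The 10 windows of 8 members and the 79 windows of the other pathway genes held neither. The matches are shown with flanking bases for 5 target genes, with the matched part in capitals and the strand of the sequence given.
Celsr3, chr9:108825914-108825942, + strand: tccgTTCAGCACCgtgggcagcacttctg
Gria2, chr3:80802985-80803013, + strand: cgattttagcaccgcGGACAGCGCtttgg
Scg2, chr1:79440021-79440049, + strand: ccgtTTCAGCACCggacagctcctcggct
Syn1, chrX:20921126-20921154, − strand: cggaTTCAGCACCgcggtcagagccttcg
Unc13a, chr8:71671723-71671751, + strand: tcgcTTCAGCACCgggggcgcggacagcg
Unc13a also held the right part on the same strand, 5 bases downstream of the start. The match lay upstream of the start in Celsr3, Gria2 and Syn1, across it in Scg2 and 22 bases downstream of it in Unc13a. A match to these letters is a description of the sequence, not evidence of binding.

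Among the 9 genes, no difference passed the test (limma, adjusted p from 0.136 to 0.921), against 0.813% of all 15245 genes called in either direction and 0.413% called lower. A call needed an adjusted p under 0.05 together with a log2 fold change of 0.1 or more in size. One member, Ehmt2, had an unadjusted p below 0.05, against 22.2% of all genes. The genotypes did not overlap in 3 of the 9, against 27.5% of all genes: Ehmt2 and Sin3b lay above WT in every Npc1-/- library (13.3% of all genes did) and Rest lay below (14.2% did). Log2 fold changes, Npc1-/- relative to WT on log2(scaled TPM + 0.5), were positive in 5 members and negative in 4, with a median of 0.05 beside 0.0081 over all genes. On TPM as deposited, where the median of all genes was −0.33, all 9 log2 fold changes were negative and 5 of them lay above that median. Exact permutation tests over the 6 libraries have 20 arrangements and cannot give a p below 0.1.

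**Figure D1:**
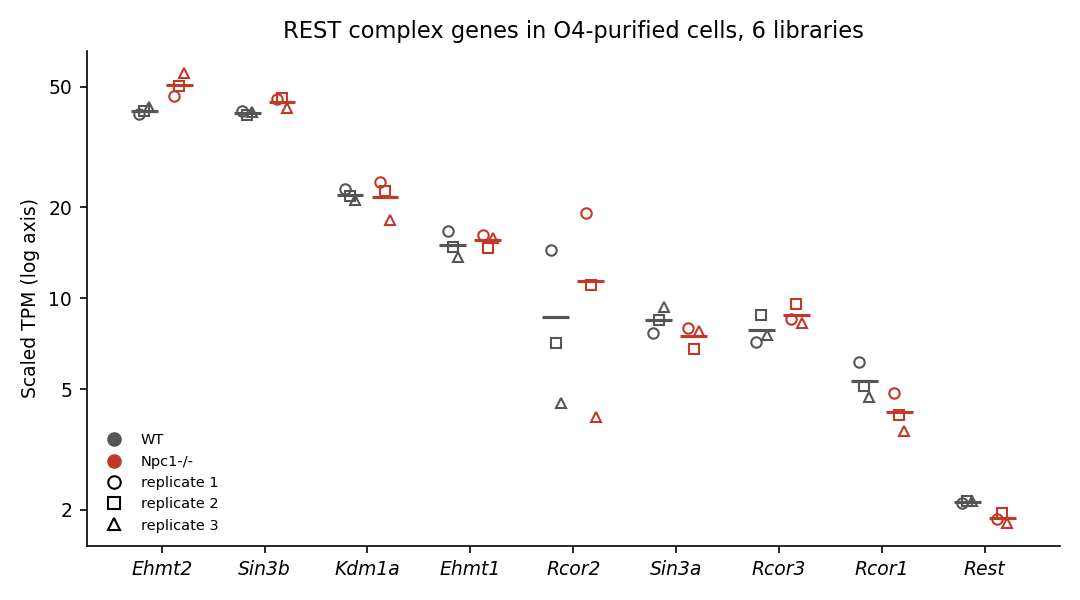
Scaled TPM (log axis) of the 9 genes in 3 WT (grey) and 3 Npc1-/- (red) libraries, with symbols for the replicates and bars at the group means. Ehmt2 and Sin3b stood highest at 40.2 to 55.4 and Rest lowest at 1.80 to 2.14, and Rcor2 spread most within each genotype.

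Rest (ENSMUSG00000029249, chromosome 5, 77265491 to 77286432, + strand, GRCm38) was the lowest of the 9 genes. Its scaled TPM was 2.11, 2.13 and 2.14 in WT replicates 1, 2 and 3 and 1.86, 1.94 and 1.80 in Npc1-/- replicates 1, 2 and 3. All Npc1-/- libraries lay below all WT libraries, by little. The means were 2.13 ± 0.0162 and 1.87 ± 0.0698 (SD, n = 3 each), and the log2 fold change was −0.15 (SE 0.12, 95% confidence interval −0.44 to 0.14, limma adjusted p = 0.529, exact permutation p = 0.1). With a curve on transcript length removed from each library the value was 0.016, so its direction depends on that choice. The level rested on 47.2 to 84.1 fragments per kilobase in a library, and 21.8% of tested genes had a lower mean. The 3 WT values lay within 1.01-fold of each other, closer than in all but 0.499% of tested genes.

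The genes whose profile over the 6 libraries was most like that of Rest were Nmt1, Crebbp and R3hdm1, with root mean square differences of 0.0224, 0.0258 and 0.0278 in centred log2 values, among 11916 candidates of at least similar level. Crebbp, which encodes a histone acetyltransferase, had a scaled TPM of 4.20, 4.33 and 4.21 in WT libraries and 3.59, 3.92 and 3.61 in Npc1-/- libraries. Nmt1, which encodes an N-myristoyltransferase, ranged from 15.9 to 16.3 in WT and from 14.5 to 15.0 in Npc1-/- libraries. R3hdm1 ranged from 30.1 to 31.5 and from 27.6 to 28.8. Like Rest, all 3 were lower in every Npc1-/- library, a pattern they were chosen for.

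Of the CoREST scaffolds, Rcor1 (ENSMUSG00000037896, chromosome 12, 111039351 to 111115901, + strand) had a scaled TPM of 6.13, 5.13 and 4.72 in WT libraries and 4.85, 4.11 and 3.65 in Npc1-/- libraries. Its genotypes overlapped only through the highest Npc1-/- and the lowest WT value. The means were 5.33 ± 0.725 and 4.20 ± 0.606 (SD, n = 3 each), with a log2 fold change of −0.31 (SE 0.15, interval −0.65 to 0.03, adjusted p = 0.266 by limma, exact permutation p = 0.2). It was the most negative of the 9, and −0.20 with the length curve removed.

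Rcor3 (ENSMUSG00000037395, chromosome 1, 192098546 to 192138062, − strand) had a scaled TPM of 7.17, 8.80 and 7.56 in WT libraries and 8.51, 9.53 and 8.28 in Npc1-/- libraries. The ranges overlapped, and the log2 fold change was 0.16 (SE 0.11, interval −0.11 to 0.42, adjusted p = 0.481 by limma). With each library left out in turn it ranged from 0.10 (without WT replicate 1 or without Npc1-/- replicate 2) to 0.23 (without WT replicate 2). Its exons overlap those of Gm26879 on the other strand over 667 bases, and whether strand was used in counting is not given in the sources used here.

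Rcor2 (ENSMUSG00000024968, chromosome 19, 7267325 to 7275225, + strand), a scaffold known from stem cells and neural progenitors, varied most. Its scaled TPM was 14.4, 7.09 and 4.51 in WT replicates 1, 2 and 3 and 19.1, 11.1 and 4.03 in Npc1-/- replicates 1, 2 and 3. In both genotypes the library of replicate 1 was the highest and that of replicate 3 the lowest. On the scale with 0.5 added, the highest WT value was 2.97 times and the highest Npc1-/- value 4.33 times the lowest, wider than in 98.5% and 99.1% of tested genes. The log2 fold change was therefore imprecise at 0.29 (SE 0.58, interval −1.08 to 1.65, adjusted p = 0.824 by limma), and it was −0.08 without WT replicate 3 and −0.19 without Npc1-/- replicate 1.

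The genes most like Rcor2 by the same measure, looked for after its values were seen, were Pax6, Lmnb1 and Nt5dc2, with root mean square differences of 0.0871, 0.131 and 0.204 among 9149 genes averaging 5 TPM or more. Pax6, a transcription factor of neural progenitors and some neurons, had a scaled TPM of 14.8, 6.44 and 3.95 in WT libraries and 16.1, 10.4 and 3.76 in Npc1-/- libraries. Lmnb1, which encodes lamin B1 of the nuclear envelope, had 16.2, 9.03 and 6.22 in WT and 19.8, 12.001 and 5.09 in Npc1-/- libraries. Both followed Rcor2 in the order of the libraries within each genotype, a pattern they were chosen for. The sum of 6 oligodendrocyte progenitor markers was 598, 669 and 496 in WT and 679, 584 and 361 in Npc1-/- libraries, lowest in the same library of each genotype. Gpr17 (449, 516 and 357 in WT and 498, 419 and 250 in Npc1-/- libraries) made up most of this sum. Each marker was lowest in Npc1-/- replicate 3. In WT replicate 3 Gpr17, Ptprz1 and C1ql1 were lowest, but Pdgfra (14.87, 15.25 and 14.89 in WT), Cspg4 and Neu4 were not. The part of these markers in the spread of Rcor2 was not tested.

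**Figure D2:**
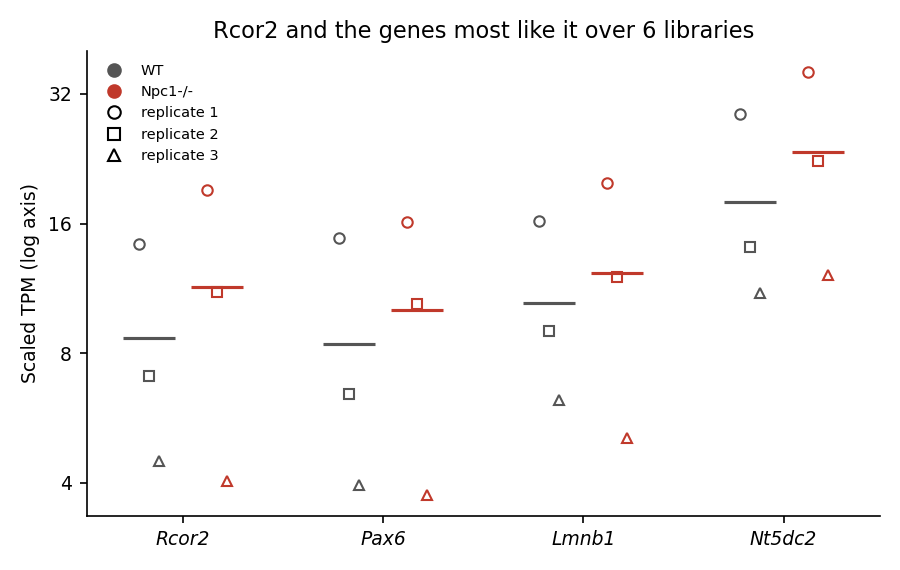
Scaled TPM (log axis) of Rcor2 and its 3 most similar genes in WT (grey) and Npc1-/- (red) libraries, with symbols for the replicates and bars at the group means. Replicate 1 was highest and replicate 3 lowest in each genotype for all 4 genes, and Rcor2 reached from 4.03 to 19.1. The other 3 genes were chosen for likeness to Rcor2 over these same libraries.

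Kdm1a (ENSMUSG00000036940, chromosome 4, 136550540 to 136602723, − strand), which encodes the demethylase of the CoREST complex, had a scaled TPM of 23.0, 21.7 and 21.1 in WT libraries and 24.1, 22.7 and 18.1 in Npc1-/- libraries. The Npc1-/- values enclosed the WT values. Its means were 21.9 ± 0.954 and 21.6 ± 3.15 (SD, n = 3 each), with a log2 fold change of −0.03 (SE 0.12, interval −0.31 to 0.26, adjusted p = 0.921 by limma). Leaving out Npc1-/- replicate 3 gave 0.09. Its lowest library was above the highest library of the scaffold genes Rcor1 and Rcor3.

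The SIN3 scaffolds differed from each other in level. Sin3a (ENSMUSG00000042557, chromosome 9, 57072040 to 57128366, + strand) had a scaled TPM of 7.67, 8.46 and 9.32 in WT libraries and 7.96, 6.78 and 7.76 in Npc1-/- libraries. The ranges overlapped, and the log2 fold change was −0.17 (SE 0.11, interval −0.43 to 0.10, adjusted p = 0.451 by limma). It was −0.04 with the length curve removed, and −0.10 without WT replicate 3 or without Npc1-/- replicate 2. Exons of Sin3a overlap those of Man2c1os on the other strand over 205 bases. Sin3b (ENSMUSG00000031622, chromosome 8, 72723285 to 72758201, + strand) had 41.7, 40.2 and 41.2 in WT and 45.6, 45.9 and 42.4 in Npc1-/- libraries. Every Npc1-/- library was above every WT library, with means of 44.6 ± 1.95 and 41.0 ± 0.764 (SD, n = 3 each). The log2 fold change of Sin3b was 0.12 (SE 0.08, interval −0.06 to 0.30, adjusted p = 0.422 by limma, exact permutation p = 0.1), and it was 0.07 with the length curve removed and 0.06 after quantile normalization.

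Of the H3K9 methyltransferases, Ehmt2 (ENSMUSG00000013787, chromosome 17, 34898469 to 34914052, + strand) had a scaled TPM of 40.8, 41.6 and 42.8 in WT libraries and 46.6, 50.1 and 55.4 in Npc1-/- libraries. Every Npc1-/- library was above every WT library. The means were 41.7 ± 1.00 and 50.7 ± 4.43 (SD, n = 3 each), and the log2 fold change of 0.28 (SE 0.09, interval 0.06 to 0.49) had an unadjusted p of 0.0182 and an adjusted p of 0.136 by limma (exact permutation p = 0.1). On TPM as deposited it was −0.09, which is 0.23 above the median of all genes on that scale. It stayed between 0.21 and 0.34 when each library was left out in turn.

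Ehmt1 (ENSMUSG00000036893, chromosome 2, 24789928 to 24919614, − strand), the partner of Ehmt2, had a scaled TPM of 16.6, 14.7 and 13.7 in WT libraries and 16.2, 14.7 and 15.8 in Npc1-/- libraries. The ranges overlapped almost fully, with a log2 fold change of 0.05 (SE 0.10, interval −0.19 to 0.29, adjusted p = 0.818 by limma). Without WT replicate 3 it was −0.01.

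**Figure D3:**
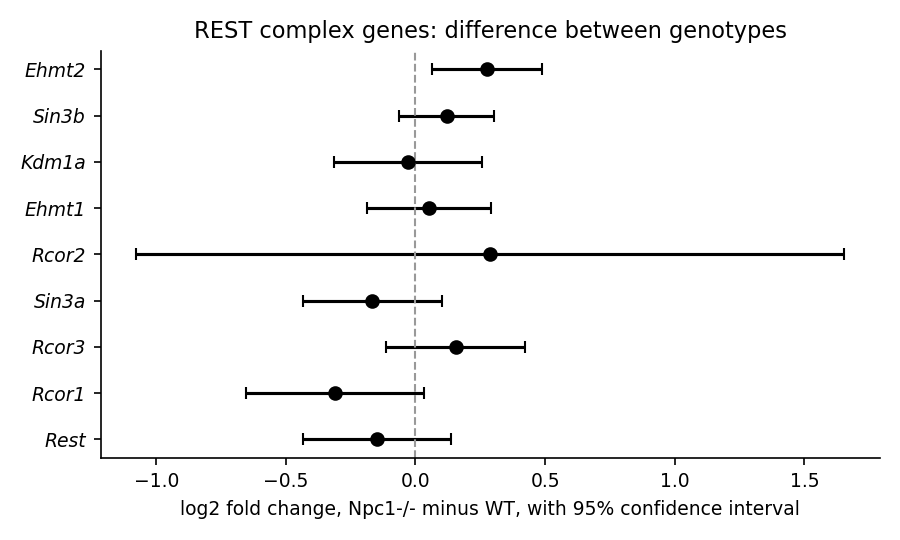
Log2 fold change of each of the 9 genes, Npc1-/- minus WT, with its 95% confidence interval from limma (n = 3 each) and a dashed line at 0. The interval of Ehmt2, 0.06 to 0.49, was the only one that did not hold 0, and that of Rcor2 was the widest at −1.08 to 1.65.

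TPM is per transcript length, so levels can be set in order across genes. In WT cells the order by mean scaled TPM was Ehmt2 (41.7), Sin3b (41.0), Kdm1a (21.9), Ehmt1 (15.0), Rcor2 (8.66), Sin3a (8.48), Rcor3 (7.84), Rcor1 (5.33) and Rest (2.13). Neighbours overlapped in their ranges from Ehmt1 through Rcor3 and between Ehmt2 and Sin3b, while the steps from Sin3b to Kdm1a, Kdm1a to Ehmt1, Rcor3 to Rcor1 and Rcor1 to Rest were clear of overlap. The order in Npc1-/- cells was the same but for Rcor3 (8.78) above Sin3a (7.50), with overlap only between Ehmt1 and Rcor2 and between Rcor2 and Rcor3. Ehmt2 and Sin3b lay above 87.6% and 86.7% of all tested genes by mean level.

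Ratios between related genes within a library do not depend on the scaling of the library, but they can depend on transcript length. With the length curve removed, log2 fold changes were 0.07 for Sin3b and −0.04 for Sin3a, against 0.12 and −0.17 otherwise. Those of Rcor3 and Rcor1 were 0.18 and −0.20, against 0.16 and −0.31. The ratios themselves were not recomputed with that curve. The log2 ratio of Sin3b to Sin3a was 2.44, 2.25 and 2.14 in WT and 2.52, 2.76 and 2.45 in Npc1-/- libraries, higher in every Npc1-/- library by 0.30 on average (exact permutation p = 0.1, adjusted p = 0.2 over 4 ratios). The log2 ratio of Rcor3 to Rcor1 was 0.23, 0.78 and 0.68 in WT and 0.81, 1.22 and 1.18 in Npc1-/- libraries, again higher in every Npc1-/- library, by 0.51 (exact permutation p = 0.1, adjusted p = 0.2). That p is the smallest this permutation test can give with 3 against 3 libraries, so the test could not pass a threshold of 0.05. The log2 ratio of Ehmt2 to Ehmt1 was 1.48 ± 0.175 in WT and 1.702 ± 0.156 in Npc1-/- libraries (SD, n = 3 each, exact permutation p = 0.2), and that of Rcor2 to Rcor1 was 0.54 ± 0.652 and 1.19 ± 0.942 (exact permutation p = 0.4). Both of these overlapped between genotypes.

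**Figure D4:**
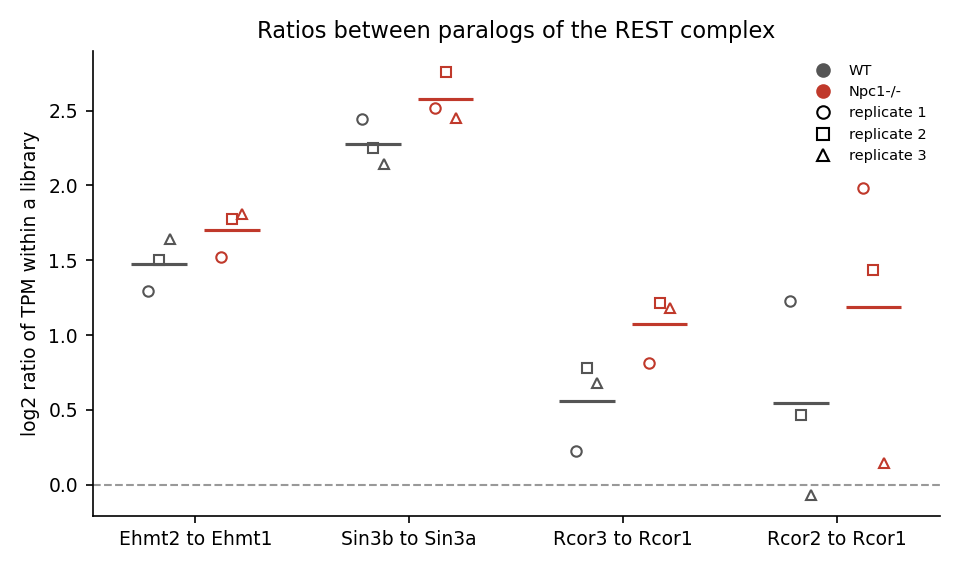
Log2 ratio of TPM between related genes within each library, WT in grey and Npc1-/- in red, with symbols for the replicates and bars at the group means. The ratios of Sin3b to Sin3a and of Rcor3 to Rcor1 were above WT in all 3 Npc1-/- libraries, by 0.30 and 0.51 on average.

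The wider pathway was followed in 5 lists with 59 genes, of which 58 could be tested. By limma none was called, against 0.813% of all genes, and 6 had an unadjusted p below 0.05, against 22.2%. In every Npc1-/- library 4 of them lay above and 8 below WT, against 13.3% and 14.2% of all genes, and the median log2 fold change was −0.05. Negative values stood in 37 of the 58, against 49% of all genes, but after removing a curve on transcript length 29 of the 58 were positive. The lists were put together with earlier results of these data known, so these counts are a description.

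Of 11 partners of CoREST, 3 had positive and 8 negative log2 fold changes, with a median of −0.04. Ctbp1, which encodes a co-repressor, was the most abundant, with a mean scaled TPM of 153 ± 2.79 in WT and 149 ± 7.03 in Npc1-/- cells (SD, n = 3 each). The deacetylase gene Hdac2 had means of 43.1 and 44.3. The smallest p-values belonged to the zinc finger genes Zmym3 and Zfp217. Zmym3, which is X-linked, was higher in every Npc1-/- library (means 11.3 and 14.4, with a log2 fold change of 0.34 and a limma adjusted p of 0.105), and Zfp217 was lower in every one (means 1.22 and 0.694, log2 fold change −0.51, adjusted p = 0.172).

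The 16 SIN3 partners were split evenly, 8 positive and 8 negative, with a median of −0.0024. The most abundant were Morf4l1, a chromatin reader (means 192 and 203), and Sap18 (means 58.9 and 67.7). The smallest p-values belonged to Suds3, which encodes the SIN3 subunit SDS3 (means 40.9 and 52.6, with a log2 fold change of 0.35 and a limma adjusted p of 0.203), and Arid4a (means 7.02 and 5.84, log2 fold change −0.25, adjusted p = 0.270).

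Of 10 writers and readers of H3K9 methylation, 4 were positive and 6 negative, with a median of −0.03. The heterochromatin protein genes Cbx3 (means 79.4 and 80.5) and Cbx1 (36.7 and 35.4) were the most abundant. Cdyl, which encodes a chromodomain co-repressor known to bridge REST and G9a, came nearest to a call. Its scaled TPM was 12.3, 14.4 and 12.02 in WT and 8.95, 7.90 and 8.13 in Npc1-/- libraries. The groups were well apart, with means of 12.9 ± 1.31 and 8.33 ± 0.553 (SD, n = 3 each) and a log2 fold change of −0.60 (SE 0.11, interval −0.85 to −0.35, adjusted p = 0.0538 by limma, just above the threshold). Across the alternative settings the log2 fold change ranged from −0.95 to −0.52 and the adjusted p from 0.0284 to 0.202. The methyltransferase gene Setdb2 was next by p (log2 fold change 0.29, adjusted p = 0.428).

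Of 11 tested demethylases of H3K9 and H3K4, 2 were positive and 9 negative, with a median of −0.08 and no unadjusted p below 0.05. Kdm4d was under the expression limit. Kdm4a (means 19.8 and 20.98) and Kdm4b (17.2 and 16.4) were the most abundant, both demethylases of H3K9. Kdm1b, the relative of Kdm1a, had means of 6.44 and 5.67 and was lower in every Npc1-/- library (log2 fold change −0.17, adjusted p = 0.366 by limma). Jmjd1c had a log2 fold change of −0.21 (adjusted p = 0.370).

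Of 10 regulators of REST and factors it recruits, 4 were positive and 6 negative, with a median of −0.09, and 4 lay below WT in every Npc1-/- library, against 14.2% of all genes. The chromatin remodeller gene Smarca4 had means of 37.2 and 38.2. The small phosphatases of the CTDSP family act on the RNA polymerase tail and protect REST from breakdown. Ctdsp1 had means of 32.6 and 28.5 (log2 fold change −0.20, adjusted p = 0.282 by limma). Ctdsp2 had 32.4, 33.8 and 30.8 in WT and 26.1, 26.6 and 27.9 in Npc1-/- libraries, with no overlap (log2 fold change −0.26, adjusted p = 0.117). Prickle1, which encodes a protein that moves REST into the nucleus, was higher in every Npc1-/- library (means 24.9 and 29.2, log2 fold change 0.22, adjusted p = 0.193).

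**Figure D5:**
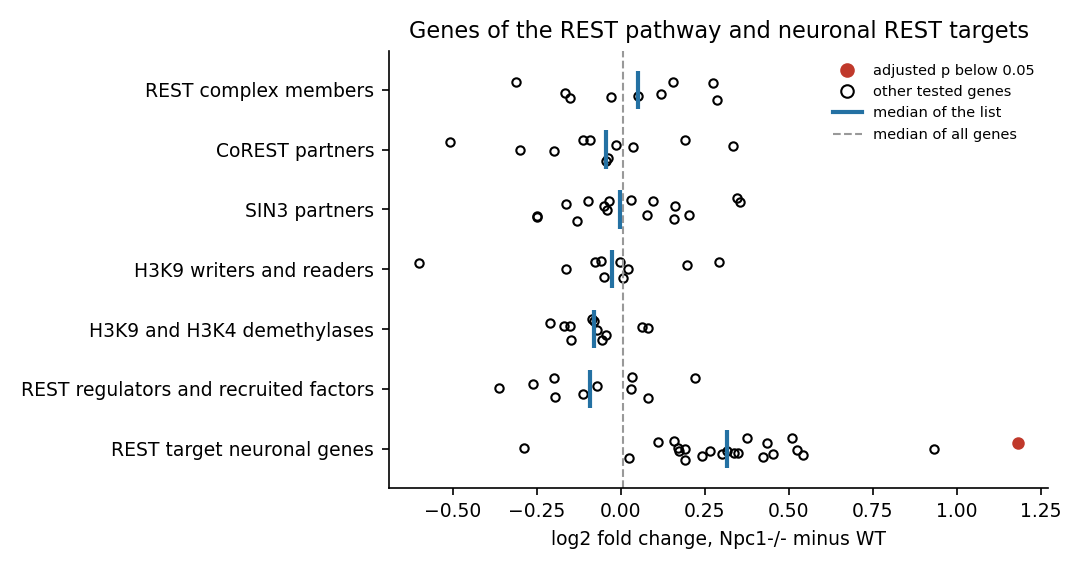
Log2 fold change, Npc1-/- minus WT, of each tested gene of the 9 members, 5 pathway lists and the neuronal REST targets. Filled red marks the called gene, blue bars the list medians and the dashed line the median of all genes, and the targets lay to the right with a median of 0.32 while the other lists lay near 0.

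Of 26 neuronal genes known as REST targets, 23 could be tested and the others were under the expression limit. The list was drawn up from general knowledge, with a textbook RE1 as one ground for inclusion. It was made with earlier results of these data known, and with no binding data from these cells. Its counts are therefore a description. One gene of the 23 was called higher by limma, against 0.4% of all genes, and none lower. Log2 fold changes were positive in 22 of the 23, against 7780 of the 15245 genes tested. Their median was 0.32 beside 0.0081 over all genes. Above WT in every Npc1-/- library were 7 targets, against 13.3% of all genes. On TPM as deposited 11 of the 23 were positive, the median was −0.02, and 21 lay above the median of all genes on that scale. The summed scaled TPM of the targets was 484 to 518 in WT and 591 to 665 in Npc1-/- libraries. The largest parts of that gap were those of Mapk8ip2 (means 31.4 and 72.0) and Mapk8ip1 (258 and 295). The summed neuron markers given above, carried by Nefl, Nefm and Elavl3, were likewise higher in every Npc1-/- library, and their part in the level of the targets was not tested.

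Mapk8ip2 (ENSMUSG00000022619, chromosome 15, 89453913 to 89464468, + strand), which encodes the JNK scaffold JIP2, rose in Npc1-/- cells. Its scaled TPM was 30.1, 30.1 and 33.9 in WT and 71.0, 66.3 and 78.6 in Npc1-/- libraries. The lowest Npc1-/- value was far above the highest WT value. The means were 31.4 ± 2.17 and 72.0 ± 6.20 (SD, n = 3 each), with a log2 fold change of 1.18 (SE 0.10, interval 0.95 to 1.41, adjusted p = 0.0102 by limma). The call was lost without WT replicate 2 (adjusted p = 0.0679) and without Npc1-/- replicate 2 (adjusted p = 0.0547), while the log2 fold change stayed between 1.12 and 1.24 with each library left out. Its relative Mapk8ip1, encoding JIP1, was the most abundant target at means of 258 ± 22.9 and 295 ± 17.8 (SD, n = 3 each), higher in every Npc1-/- library (log2 fold change 0.19, adjusted p = 0.344).

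The other targets did not pass the test. Tubb3, a neuronal tubulin gene, had means of 30.2 ± 10.2 in WT and 41.4 ± 14.8 in Npc1-/- cells (SD, n = 3 each, log2 fold change 0.44, adjusted p = 0.456 by limma). Calb1, which encodes the calcium buffer calbindin, had a scaled TPM of 2.56, 2.64 and 3.02 in WT libraries and 5.87, 3.70 and 8.27 in Npc1-/- libraries. It was above WT in each Npc1-/- library but spread widely among them (log2 fold change 0.93, SE 0.25, adjusted p = 0.0951). Syt4, encoding a vesicle synaptotagmin, had 1.61, 1.46 and 1.48 in WT and 2.82, 1.99 and 2.56 in Npc1-/- libraries, also without overlap (log2 fold change 0.54, SE 0.15, adjusted p = 0.102). The granin genes Chga and Chgb, which are named because both were above WT in every Npc1-/- library, had log2 fold changes of 0.42 and 0.51 (adjusted p = 0.157 and 0.136). Pcsk2, a prohormone convertase gene and the only target with a negative value, had −0.29 (adjusted p = 0.496).

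Among the 5 targets whose RE1 matches are shown above, the log2 fold changes were 0.38 for Celsr3, 0.16 for Gria2, 0.34 for Scg2, 0.17 for Syn1 and 0.45 for Unc13a. All were positive on the scaled values, and none passed the test (adjusted p from 0.299 to 0.651 by limma). Their genotypes overlapped in each case. Celsr3 and Scg2, an adhesion receptor and a granin gene, were low in these cells, with means of 1.199 and 1.15 in WT and 1.61 and 1.55 in Npc1-/- libraries. Gria2, which encodes an AMPA receptor subunit, was the highest of the 5 at 22.4 and 25.2.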

How the data were processed

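Poly(A) RNA from 3 WT and 3 Npc1-/- samples of O4-purified cells was analysed, grouped by the genotype in the sample labels. The authors deposited TPM and FPKM for 55492 genes with 2 decimals. The submitters' processing notes name cutadapt 2.3, FastQC 0.11.8, STAR 2.7.8a, RSEM 1.3.3 and MultiQC 1.7 with GRCm38, whereas the study's methods describe bbduk, STAR, featureCounts and DESeq2. Which of these gave the TPM and FPKM, and the strand setting, are not given in the sources used here.

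Each TPM was scaled by its library's size factor (0.727 to 1.30), from the median of ratios to each gene's geometric mean, with 18690 genes above 0 everywhere. Genes averaging 0.5 TPM or more were fitted as log2(scaled TPM + 0.5) with limma 3.58.1 (R 4.3.3, eBayes with trend, two-sided, genotype only, Benjamini-Hochberg over 15245 genes). The added 0.5 understates changes of low genes. Calls needed an adjusted p under 0.05 together with a log2 fold change of 0.1 or more in size. TPM is not a count, so no count test was run. Depth was read from whole-fragment steps between low FPKM values, with 81.1% to 84.0% of them within 0.15 of a whole number (30% by chance). Intervals on levels are the spread between biological replicates. On simulated data the gene model recovered 78% of changes with a log2 fold change of 1.5 in size and 36% of those of 0.75. The largest member log2 fold change in size was −0.31 (Rcor1), so a lack of calls is not evidence of no change. Simulated depths were read with an error of up to 1.11%.

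Positions came from GENCODE M21 (GRCm38) and promoter windows from RefSeq (GRCm38.p6). All 9 members had deposited values, and 8 had a promoter window. The members and lists were chosen with earlier results of these data known. Named beyond the members were, per list, the called genes, the 2 most abundant and the 2 with the smallest p, and the 3 genes most like Rest. Chga, Chgb, Pcsk2, the marker genes given by name, the genes with RE1 matches and those like Rcor2 were named after their values were seen. The alternatives were other scalings, FPKM, pseudocounts, filters, variance models, a length curve, the replicate number as a block and each library left out in turn.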

Additional observations from a re-analysis of the deposited data

How the results depend on the processing

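No member was called under any of the 12 other settings or with any of the 6 libraries left out, and 149 recomputed member fold changes kept their direction and their side of the threshold while 12 changed sign. Other filters, variance models and the replicate block leave a fold change at its main value, so its direction could not change there. Rest could not be tested at a mean TPM limit of 5. Recomputing the targets' median, Mapk8ip2 and Cdyl was added after seeing the data. On TPM as deposited (median of all genes −0.33) Rcor2 was −0.055, Rcor3 −0.20, Sin3b −0.25, Ehmt1 −0.31 and Ehmt2 −0.094, the median of the members was −0.31, that of the targets −0.019, 870 genes were called lower and 1 pathway gene (Cdyl) was called. With the length curve Rest was 0.016. Over libraries left out, Kdm1a ranged from −0.11 to 0.088, Rcor2 from −0.19 to 0.87, Ehmt1 from −0.012 to 0.13, the members' median from −0.11 to 0.10 and the targets' median from 0.21 to 0.44, with 0 to 1 targets called. The 4 ratios kept their direction in all 32 recomputations. Among these, FPKM and the replicate block leave such a ratio all but unchanged by construction, and the length curve was not included.

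Counts over all genes moved between settings. The count of members called was 0 throughout, and with 9 genes of small fold changes it had little room to move. The main setting called 61 genes higher and 63 lower, quantile normalization 92 and 133, no filter on low values 14 and 7, a limit of 5 on the mean TPM gave 175 and 272 (1 pathway gene, Cdyl), and limma without trend 26 and 16. With 1 library left out the counts were 4 to 106 higher and 1 to 371 lower, lowest without Npc1-/- replicate 2 and highest without Npc1-/- replicate 3.

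The labels give no pairing by litter or preparation, so the replicate numbers were not taken as pairs. Deviations of same-numbered libraries correlated at 0.414, 0.0602 and 0.326, and whether such libraries share a litter or preparation was not tested. Under the replicate block 1143 genes were called higher and 868 lower, none a member, with 2 pathway genes (Suds3 and Cdyl) and 6 targets. With the block and the length curve these were 986, 834, 3 and 7, and Rest was 0.016. The adjusted p of Ehmt2 with the block was 0.0589. Rest, at 47.2 to 84.1 fragments per kilobase, has the least depth per length of the 9.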
